A study of Mus musculus with 6 samples.

Results

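The genes described here drive or restrain the cell cycle, and some of them act when hepatocytes gain extra sets of chromosomes. They are 41 named genes, all found by symbol among the 17275 genes of the deposited count table, and they were read as 14 genes of G1 and G1/S control, 12 of S phase and 15 of mitosis. Of the 41, 40 passed the filter on low counts and were tested. Only Aurkb, the kinase of the chromosomal passenger complex, did not, with 1 to 15 reads in a library.

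RNA was sequenced from sorted hepatocytes of C57BL/6 mice of genotype Axin2rtTA;TetO-H2B-GFP, given doxycycline for 7 days. In these mice the Axin2 locus drives a doxycycline-dependent activator, which switches on a green fluorescent histone, so cells with an active Axin2 promoter gain fluorescent nuclei. Both groups carried both transgenes and received doxycycline. They differed in fluorescence: Axin2-positive cells were fluorescent and Axin2-negative cells were not, after non-parenchymal cells had been removed. The labels give the age as 8 weeks in one field and as postnatal day 63 in another. Each group had 3 libraries, numbered here by a sequencing index that occurs once in each group, and values are given in the order of indexes 1, 2 and 3, first under the Axin2-positive label and then under the Axin2-negative one. Whether each library came from a separate mouse is not stated, so p-values measure only how much these libraries vary. Reads of a Y chromosome gene, given below, show that index 2 came from other mice than indexes 1 and 3. Libraries of the same index may share mice, and the spread between indexes 1 and 3 may be technical.

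Cells enter the cycle when D cyclins with Cdk4 or Cdk6, and then E cyclins with Cdk2, phosphorylate the retinoblastoma protein and release E2F factors, which switch on genes for DNA replication. Cyclins A and B with Cdk1 then drive mitosis, and the DREAM complex represses these late genes in resting cells through CHR elements in their promoters. Adult hepatocytes are mostly quiescent, and many become polyploid when they replicate DNA without completing cytokinesis, a process in which E2f7 and E2f8 act as repressive E2Fs.

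The libraries held 75882611 to 103386648 reads assigned to genes, and 3 reads, taken as the floor of detection, corresponded to 0.0309 to 0.038 CPM, the reads of a gene scaled to the size of its library. Axin2 stood at 22.6 and 24.2 CPM in Axin2-positive 2 and 3, against 3.75 and 5.75 CPM in their partners. Index 1 goes against its labels, with 2.4 CPM in the library labelled Axin2-positive 1 and 3.04 CPM in Axin2-negative 1. Its libraries were also close to each other over all tested genes. The SD of their log2 difference was 0.22, against 0.78 in index 2 and 0.62 in index 3. Directions that include index 1 carry these limits, and values are therefore also given for indexes 2 and 3 alone. Ddx3y, a gene of the Y chromosome, stood at 90.8 and 84.1 CPM in the libraries of index 2 and at 0 to 0.0309 CPM in the other 4, so index 2 and the sex of the mice cannot be told apart. The 8 hepatocyte markers summed to 88552 to 184938 CPM in the 6 libraries. Pericentral hepatocyte markers summed to 2087, 15127 and 16131 CPM under the Axin2-positive label and to 2083, 3675 and 5175 CPM under the Axin2-negative label, so that the library labelled Axin2-positive 1 lay level with its partner. Periportal markers summed to 6474, 1774 and 3348 CPM against 6557, 7807 and 8615 CPM. Bile duct markers summed to 15 to 35.6 CPM, erythroid markers to 45 to 266 CPM with index 2 highest, lymphocyte markers to at most 0.502 CPM and neutrophil markers to at most 0.0581 CPM.

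None of the 40 tested members was called between the groups by edgeR's quasi-likelihood test over all 6 libraries (Benjamini-Hochberg adjusted p = 0.999 for each), where 0% of 12343 genes were called in either direction. No member had an unadjusted p under 0.05 either, against 2.26% of all tested genes. DESeq2 and limma-voom also called 0 members, and 0 had an unadjusted p under 0.05 in either, against 2.68% and 1.93% of genes. DESeq2 gave no adjusted p for Cdkn1a, so it could not call that member. With the shared index as a block, edgeR again called 0% of genes, and 3 members had an unadjusted p under 0.05, Cdk4 and Gmnn higher and Cdkn1a lower, against 4.36% of genes higher and 4.81% lower. Without index 1, the blocked edgeR fit called 3.43% of 12385 genes higher and 4.01% lower, and 0 members. Against a fold of 1.5 that fit called 0.791% and 0.888% of genes, and again 0 members.

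The levels of some members went with the index, as the plot of all members by library shows. The summed level of the G1 members was 249, 161 and 177 CPM under the Axin2-positive label, and 249, 152 and 261 CPM under the Axin2-negative label. The S phase members summed to 76.6, 69.7 and 77.7 CPM against 75.3, 57.3 and 70.7 CPM, in the same order. The mitotic members summed to 9.51, 8.49 and 12.8 CPM against 9.42, 5.87 and 11.7 CPM. In each phase the groups overlapped, and the lowest sum was that of Axin2-negative 2. Median log2 fold changes over the tested members were 0.03 for G1, 0.15 for S phase and 0.22 for mitosis, beside -0.00 for all tested genes. Over indexes 2 and 3 alone, with the index block, they were 0.04, 0.22 and 0.35. The S phase and mitotic medians depended on single libraries. In fits on group alone they were -0.02 and -0.08 without Axin2-negative 2, and 0.07 and -0.01 without Axin2-positive 3. Leaving out any other library kept both positive. Such a fit breaks an index pair, so that levels of the index enter it. Without index 2, with the block, the medians were 0.06 and 0.03.

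**Figure D1:**
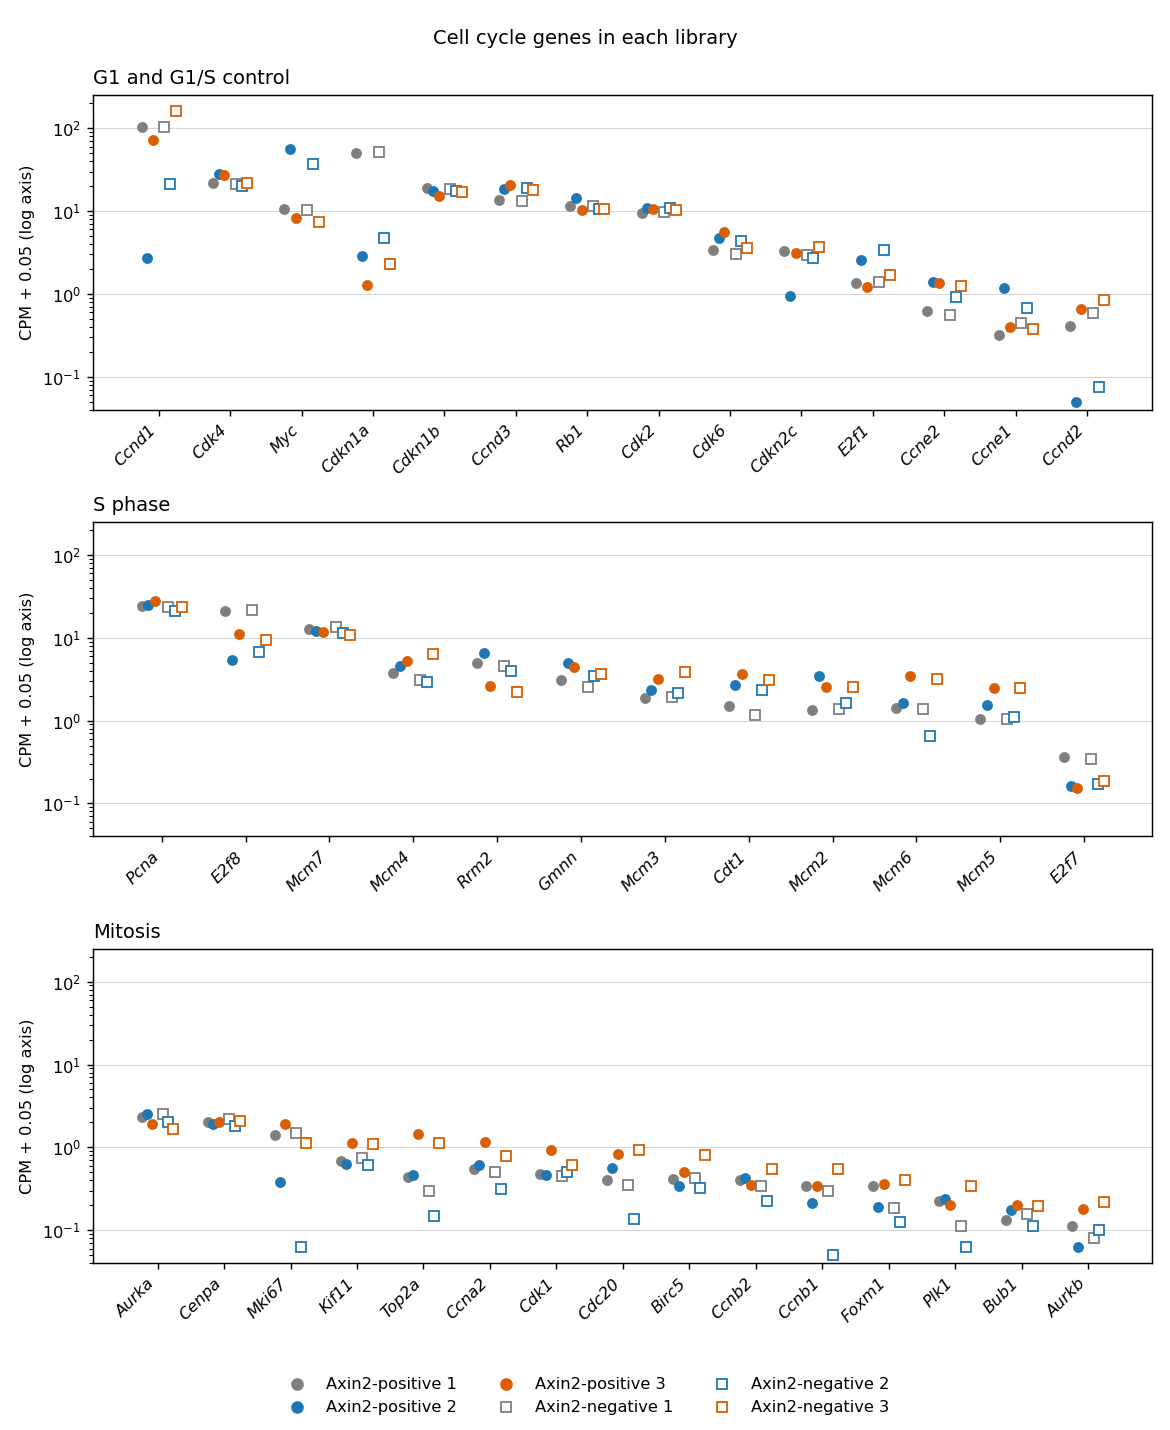
CPM plus 0.05 on a logarithmic axis for each member (columns, by phase, in order of mean CPM), with 1 point per library, filled for Axin2-positive, open for Axin2-negative and coloured by index. Mki67 stands lowest in Axin2-negative 2, at 0.0124 CPM, and Cdkn1a highest in both libraries of index 1, at 50.2 and 51.7 CPM.

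Gene length enters a comparison of levels between genes, so levels were compared in the authors' deposited table, which gives 1 FPKM value per transcript and group. In the authors' deposited table, 18 members reached 1 FPKM as the mean of the group values and 23 did not, 4 of these in G1, 5 in S phase and 14 in mitosis. Median FPKM in the authors' deposited table was 3.72 for G1, 1.33 for S phase and 0.175 for mitosis. Ccnd1 (21.9 FPKM), Cdk4 (19.9 FPKM) and the replication clamp Pcna (18 FPKM) were the most abundant members there. Of the mitotic members only Cenpa, the histone variant of centromeres, passed 1 FPKM in the authors' deposited table, at 1.67 FPKM. The authors' deposited table marked 0 members as significant, and 29 members had a transcript that it tested.

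Ccnd1 encodes cyclin D1, which starts G1 progression with Cdk4 and Cdk6, and lies on chromosome 7 from 144929931 to 144939925 on the minus strand (GRCm38, GENCODE annotation). It stood at 104, 2.64 and 72.3 CPM under the Axin2-positive label, and at 104, 21.1 and 163 CPM under the Axin2-negative label. The lowest library was Axin2-positive 2 and the highest Axin2-negative 3, the groups overlapped, and index 1 held the same level in both. Within index 2 Ccnd1 was 8.02-fold lower in the Axin2-positive library (95% counting interval 6.94 to 9.3), and within index 3 it was 2.25-fold lower (2.19 to 2.32). The log2 fold change was -0.68 (SE 1.23) over 6 libraries, -1.33 (SE 0.58) with the index block and -1.99 (SE 0.42) over indexes 2 and 3, where the adjusted p of edgeR was 0.056. Of the 41 members 15 have exons that overlap a gene on the other strand (LTO1 for Ccnd1) and 3 a gene on the same strand, 17 in all, and their reads are uncertain because the use of strand in counting is not given in the sources used here. The counting intervals, exact Clopper-Pearson on the reads of 1 library pair, cover counting error only.

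Summed endothelial and stellate cell markers each ranked the libraries within each group in the same order as Ccnd1 did. So did lymphocyte markers, at no more than 0.502 CPM. Kupffer cell markers did so in neither group. Hepatocyte, periportal and bile duct markers did so only under the Axin2-positive label. The 10 endothelial markers summed to 58.2, 1.98 and 57.3 CPM under the Axin2-positive label and 54.4, 6.06 and 81.7 CPM under the Axin2-negative label, and they were lower in the Axin2-positive library for 3, 9 and 10 of 10 genes in index 1, 2 and 3. The 9 Kupffer cell markers that the table holds summed to 3.08, 0.38 and 4.12 CPM against 3.18, 3.84 and 27.5 CPM, and 10 stellate cell markers to 5.58, 0.253 and 4.69 CPM against 5.36, 0.946 and 5.99 CPM. Of the stellate markers, 6, 3 and 7 of 10 were lower in the Axin2-positive library of index 1, 2 and 3. None of the endothelial, Kupffer cell or stellate markers was at 0 in every library. Their part in the Ccnd1 values was not tested, and in bulk samples fewer cells of a type and less RNA per cell cannot be told apart.

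**Figure D2:**
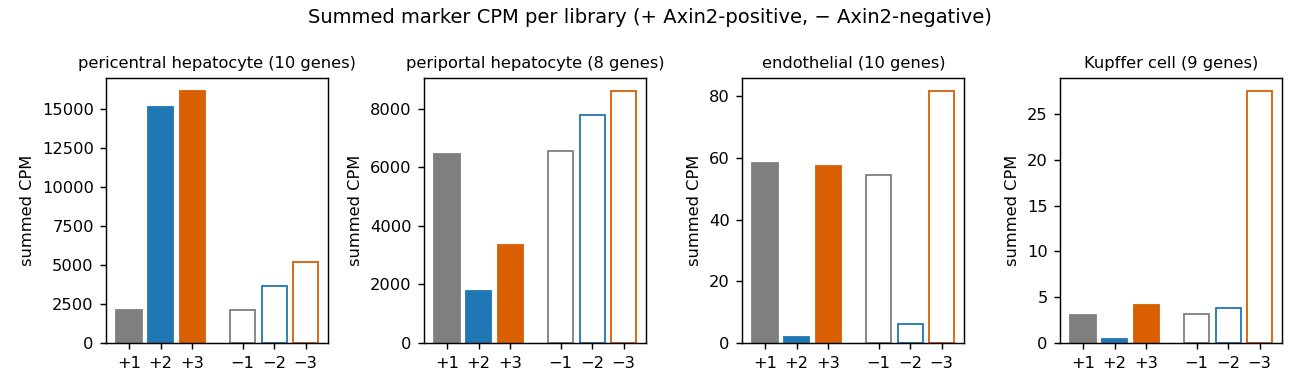
Bars give summed CPM of marker genes per library, from 0, for pericentral and periportal hepatocytes, endothelial cells and Kupffer cells, filled for Axin2-positive (+) and open for Axin2-negative (−), coloured by index. Endothelial markers stand lowest in index 2, at 1.98 and 6.06 CPM, and Kupffer cell markers highest in Axin2-negative 3, at 27.5 CPM.

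Ccnd2, cyclin D2, was low. It stood at 0.36, 0 and 0.605 CPM under the Axin2-positive label and 0.533, 0.0249 and 0.787 CPM under the Axin2-negative label. Both libraries of index 2 lay under the floor of 3 reads, with 0 and 2 reads. Ccnd3, cyclin D3, stood at 13.6, 18.3 and 20.5 CPM against 13.1, 18.9 and 17.9 CPM, with overlapping groups. Unlike the other D cyclins it was not low in index 2, and its log2 fold change was 0.07 (SE 0.21).

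Cdk4, the kinase partner of the D cyclins, stood at 21.5, 28.2 and 26.9 CPM under the Axin2-positive label and 21.2, 20.1 and 21.6 CPM under the Axin2-negative label. Axin2-positive 2 and 3 lay above all 3 Axin2-negative libraries, and only the library labelled Axin2-positive 1, at 21.5 CPM, lay within their range. The log2 fold change was 0.29 (SE 0.12, unadjusted p = 0.0536 in edgeR), and 0.40 (SE 0.09, adjusted p = 0.0652) over indexes 2 and 3. Exons of Cdk4 overlap those of Tspan31 on the other strand, so its reads are among the uncertain ones. Cdk6, the related kinase, was higher in the Axin2-positive library of each index (3.3, 4.75 and 5.48 CPM against 2.99, 4.31 and 3.49 CPM). Cdk2, the partner of cyclins E and A, stood at 9.53, 10.8 and 10.6 CPM against 9.84, 11 and 10.3 CPM, a range of 1.15-fold with overlapping groups.

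The E cyclins were low. Ccne1 stood at 0.268, 1.14 and 0.349 CPM against 0.397, 0.622 and 0.331 CPM, highest in both libraries of index 2. Ccne2 stood at 0.566, 1.33 and 1.31 CPM against 0.502, 0.859 and 1.19 CPM. It was higher in the Axin2-positive library of each index, and within index 2 the ratio was 1.55 (1.13 to 2.13).

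Cdkn1a encodes p21, an inhibitor of cyclin-dependent kinases and a target of p53, and lies on chromosome 17 from 29090976 to 29100727 on the plus strand. It stood at 50.2, 2.86 and 1.23 CPM under the Axin2-positive label and at 51.7, 4.65 and 2.27 CPM under the Axin2-negative label. Both libraries of index 1 were far above the other 4, and the lowest and highest library differed by 41.9-fold. Within indexes 2 and 3 Cdkn1a was 1.63-fold (1.37 to 1.93) and 1.84-fold (1.45 to 2.35) lower in the Axin2-positive library. The log2 fold change was -0.11 (SE 1.67) over 6 libraries and -0.50 (SE 0.18, adjusted p = 0.45) with the index block, and -0.78 (SE 0.20, adjusted p = 0.082) over indexes 2 and 3.

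Some further p53 targets, Btg2 among them, were also highest in index 1, but by less than 2-fold. Others did not follow. Trp53inp1 was lowest in index 1, at 325 and 311 CPM against 470 to 570 CPM in the other libraries. Mdm2 and Bax were not highest there. Why Cdkn1a was high in index 1 was not tested. Both libraries of index 1 lay at least 2-fold above every other library for Cdkn1a and E2f7 among the members, against 0.964% of tested genes, and for 0 of 12 further p53 targets. Btg2, an antiproliferative p53 target, stood at 766, 292 and 400 CPM against 781, 441 and 581 CPM, highest in index 1. Over indexes 2 and 3 it passed edgeR's test as lower in the Axin2-positive libraries (adjusted p = 0.0425), but not against a fold of 1.5 (adjusted p = 1). Bax, a p53 target that promotes apoptosis, stood at 11.2, 14.4 and 13 CPM against 11.4, 11.5 and 9.45 CPM.

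The other inhibitors varied less. Cdkn1b, p27, stood at 18.9, 17.4 and 15 CPM against 18.5, 17.2 and 16.8 CPM, a range of 1.26-fold with overlapping groups. Cdkn2c, p18, an inhibitor of Cdk4 and Cdk6, stood at 3.25, 0.887 and 3.05 CPM against 2.92, 2.66 and 3.66 CPM, lowest in Axin2-positive 2. Within index 2 it was 3-fold lower there (2.28 to 3.99), and its log2 fold change over 6 libraries was -0.36 (SE 0.49).

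Myc, a transcription factor that promotes growth and cell cycle entry, stood at 10.6, 55.8 and 8.12 CPM under the Axin2-positive label and 10.4, 37 and 7.43 CPM under the Axin2-negative label. Both libraries of index 2 lay at least 2-fold above the others, which held for 0.608% of tested genes. The Axin2-positive value was higher in each index, by 1.51-fold in index 2 (1.44 to 1.58). Rb1, the retinoblastoma protein that holds E2F factors, stood at 11.5, 14.4 and 10.4 CPM against 11.4, 10.6 and 10.7 CPM, and was highest in Axin2-positive 2. E2f1, an activating E2F, stood at 1.32, 2.55 and 1.16 CPM against 1.36, 3.31 and 1.66 CPM, so that it was lower in the Axin2-positive library of each index, with a log2 fold change of -0.33 (SE 0.47).

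Among the S phase members, promoters with E2F matches were common. E2F sites were searched on both strands as TTTCCCGC, TTTGGCGC, TTTCGCGC and TTTGCCGC, in windows of 250 bases before to 50 after each start in RefSeq (GRCm38.p6), where 31 of 41 members matched, with 35 windows. Of the S phase windows, 6 of 11 held such a match (54.5%), beside 1 of 12 for G1, 1 of 12 for mitosis and 2.26% of all 32851 windows. The stretch of Mcm6 (chr1:128359706-128359827, minus strand) is shown to give these matches their context; capitals mark E2F matches, of which the first 2 of 3 overlap, and CCAAT boxes (CCAAT or ATTGG). A match is a description of the sequence and not evidence of binding.
Mcm6: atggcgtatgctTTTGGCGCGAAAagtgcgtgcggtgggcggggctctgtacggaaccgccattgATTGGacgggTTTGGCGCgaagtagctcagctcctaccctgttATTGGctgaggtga

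Mcm6, a subunit of the MCM helicase that unwinds DNA at replication origins, stood at 1.36, 1.58 and 3.44 CPM under the Axin2-positive label and 1.32, 0.597 and 3.09 CPM under the Axin2-negative label. Index 3 was highest in both groups and Axin2-negative 2 lowest. Within index 2 the ratio was 2.65 (1.89 to 3.78), on 125 and 48 reads, and the log2 fold change over 6 libraries was 0.35 (SE 0.67). Mcm2, another helicase subunit, stood at 1.3, 3.4 and 2.51 CPM against 1.32, 1.59 and 2.49 CPM, and its within-index ratio was above 1 beyond counting error only in index 2 (2.13, 1.72 to 2.65). Mcm4 stood at 3.68, 4.51 and 5.21 CPM against 3.01, 2.9 and 6.29 CPM, higher in the Axin2-positive library of indexes 1 and 2 and lower in that of index 3. Mcm7, whose exons overlap Ap4m1 and Cops6 on the other strand, stood at 12.7, 12.2 and 11.6 CPM against 13.4, 11.4 and 10.7 CPM, a range of 1.25-fold with overlapping groups. Mcm3 and Mcm5 lay between 0.993 and 3.8 CPM.

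Pcna, the sliding clamp of DNA polymerases, stood at 23.9, 24.7 and 27.5 CPM under the Axin2-positive label and 23.5, 21.1 and 23.5 CPM under the Axin2-negative label. It was the only member whose groups did not overlap, as for 3.44% of tested genes on the higher side, and 0 members lay wholly lower, against 3.77%. With library totals in place of TMM scaling the groups of Pcna overlapped. Its log2 fold change was 0.16 (SE 0.09, unadjusted p = 0.13 in edgeR). Without index 1, 7 members lay wholly higher (Ccne2, Cdk4, Cdk6, Mcm2, Mcm7, Pcna and Gmnn), against 19.9% of genes, and 1, E2f7, wholly lower, against 21.0%. E2f7 had only 9 and 9 reads against 10 and 12 in indexes 2 and 3, and its counting interval included a ratio of 1 in both.

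Gmnn, geminin, which keeps replicated origins from being licensed again, stood at 3.03, 4.95 and 4.44 CPM against 2.47, 3.43 and 3.61 CPM. It was higher in the Axin2-positive library of each index, with counting intervals above 1 each time (ratios 1.23, 1.44 and 1.23), and its log2 fold change was 0.38 (SE 0.26) over 6 libraries and 0.37 (SE 0.14, adjusted p = 0.45) with the index block. Cdt1, the licensing factor that geminin binds, stood at 1.45, 2.61 and 3.57 CPM against 1.11, 2.3 and 3.06 CPM, also higher in each index. Rrm2, the small subunit of ribonucleotide reductase, which makes deoxynucleotides, stood at 4.9, 6.52 and 2.57 CPM against 4.48, 3.93 and 2.14 CPM, higher in each index and by 1.66-fold (1.44 to 1.91) in index 2.

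E2f8 lies on chromosome 7 from 48866429 to 48881596 on the minus strand and was the more abundant of the repressive E2Fs in the authors' deposited table, at 1.77 FPKM against 0.0509 FPKM for E2f7. It stood at 21.1, 5.33 and 11.2 CPM under the Axin2-positive label and 21.6, 6.74 and 9.38 CPM under the Axin2-negative label. Index 1 was highest and index 2 lowest in both groups, and the log2 fold change was -0.01 (SE 0.62). E2f7 stood at 0.309, 0.114 and 0.105 CPM against 0.293, 0.124 and 0.137 CPM, highest in index 1 in both groups. For both genes the libraries of index 1 lay above all 4 others, whatever the group.

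Many mitotic genes carry the CHR element (TTTGAA, searched on both strands), often beside CCAAT boxes. Of 12 mitotic windows, 9 held a CHR match and 11 a CCAAT box, beside 2 and 10 of 11 S phase windows, 0 and 4 of 12 G1 windows, and 17.9% and 37.4% of all windows. Stretches of 3 mitotic members described next are shown for these elements, those of Mki67, Top2a and Cdc20, from chr7:135716460-135716579, chr11:99024195-99024428 and chr4:118437344-118437408, all on the minus strand; capitals mark CHR elements (TTTGAA or TTCAAA) and CCAAT boxes (CCAAT or ATTGG). These letters are a description of the windows.
Mki67: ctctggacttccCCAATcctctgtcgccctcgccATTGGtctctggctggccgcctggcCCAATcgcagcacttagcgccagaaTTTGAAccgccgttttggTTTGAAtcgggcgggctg
Top2a: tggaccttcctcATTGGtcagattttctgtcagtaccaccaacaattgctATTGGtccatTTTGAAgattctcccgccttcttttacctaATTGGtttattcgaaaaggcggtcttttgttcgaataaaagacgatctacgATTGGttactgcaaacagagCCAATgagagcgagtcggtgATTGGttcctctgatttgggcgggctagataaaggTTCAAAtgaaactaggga
Cdc20: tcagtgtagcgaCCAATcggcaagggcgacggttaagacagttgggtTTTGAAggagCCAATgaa

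Mki67 encodes Ki-67, a protein of the mitotic chromosome surface and a common marker of cycling cells (chromosome 7, 135689784 to 135716361, minus strand). It stood at 1.34, 0.329 and 1.86 CPM under the Axin2-positive label and at 1.43, 0.0124 and 1.07 CPM under the Axin2-negative label. Both libraries of index 2 were at least 2-fold below the others, as were those of Ccnd1 and Ccnd2, against 4.37% of tested genes. Axin2-negative 2 held 1 read and Axin2-positive 2 held 26, a ratio of 26.5 with a counting interval from 4.35 to 1085, and in index 3 the reads were 94 and 160 (ratio 1.74, 1.34 to 2.26). In index 1 the order was the other way (ratio 0.934, 0.729 to 1.2), and the log2 fold change over 6 libraries was 0.49 (SE 1.28). Mki67 was the only member past 1.5-fold higher in both indexes 2 and 3 (3.22% of tested genes), and Ccnd1 and Cdkn1a the only ones past it lower (6.64%).

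Top2a, the topoisomerase that untangles sister chromosomes, had 38, 33 and 121 reads under the Axin2-positive label and 24, 8 and 95 under the Axin2-negative label. Both libraries of index 3 lay at least 2-fold above the others, against 0.446% of tested genes. The Axin2-positive value was higher in each index, with a ratio of 4.2 (1.9 to 10.5) in index 2. Cdc20, an activator of the anaphase-promoting complex whose exons overlap Elovl1 on the other strand, had 34, 40 and 68 reads against 29, 7 and 76, and the ratio in index 2 was 5.82 (2.58 to 15.4).

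Ccnb1, cyclin B1, had 28, 13 and 25 reads against 24, 0 and 43. Against a floor of 3 reads for Axin2-negative 2 it was at least 4.41-fold higher in Axin2-positive 2, and the counting interval of that ratio, which allows for error in both libraries, had a lower limit of 3.1. In index 3 it was lower, with a ratio of 0.593 (0.347 to 0.993). Plk1, a kinase of mitotic entry and spindle assembly, had 17, 15 and 13 reads against 6, 1 and 26. The ratio was 15.3 (2.35 to 643) in index 2 and 0.51 (0.241 to 1.03) in index 3. Foxm1, a transcription factor for mitotic genes, had 28, 11 and 27 reads against 13, 6 and 31.

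Of the 14 tested mitotic members, 13 were higher in the Axin2-positive library of index 2, against 8 in index 1 and 7 in index 3, with median log2 differences of 0.80, 0.10 and 0.00. In index 2 endothelial and Kupffer cell markers were lower in the Axin2-positive library, at 1.98 against 6.06 CPM and 0.38 against 3.84 CPM. Stellate markers summed to 0.253 against 0.946 CPM, with a median log2 difference of 0.00. Lymphocyte markers were higher there, at 0.0507 against 0.0249 CPM. Whether other cell types had a part in the mitotic values was not tested. Over all 12343 tested genes 6057 were higher in index 2, with a median of -0.01. The counting interval excluded a ratio of 1 for 8 of the 15 mitotic members in index 2, all higher. Over the 41 members it did so for 20 higher and 5 lower in index 2, against 33.5% of tested genes in each direction. In index 3 it did so for 9 higher and 9 lower, against 32.0% in each, and in index 1 for 5 higher and 0 lower, against 11.2% and 11.4%. Whether mitotic members differ between indexes in their response was not tested, since each index holds 1 library per group.

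**Figure D3:**
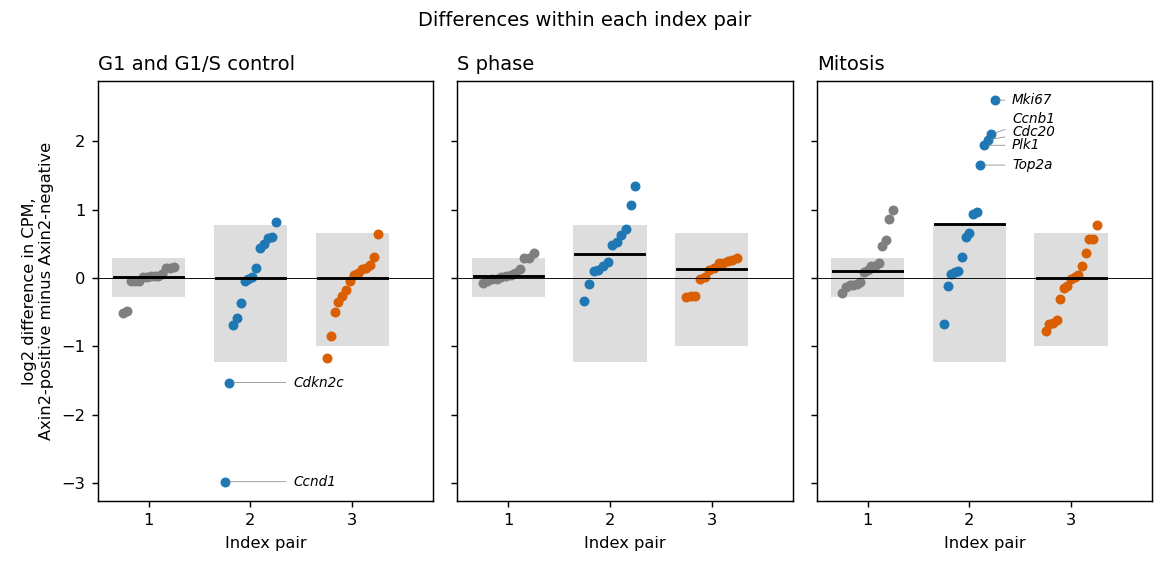
Points are members, placed by their log2 difference in CPM (Axin2-positive minus Axin2-negative, offset 0.05 CPM) within each of 3 index pairs, by phase; black lines are medians of the tested members and grey bands run from the 5th to the 95th percentile of all tested genes. The mitotic median is 0.80 in index 2 and 0.00 in index 3, and Ccnd1 lies lowest, at -2.98 in index 2.

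Cenpa and Aurka were the most level mitotic members. Cenpa ranged from 1.74 to 2.17 CPM, by 1.25-fold. Aurka, a kinase of centrosome maturation, ranged from 1.63 to 2.5 CPM, by 1.53-fold. Kif11, the motor that separates spindle poles, ranged from 0.56 to 1.08 CPM and followed the index, with index 3 highest in both groups. Ccna2, cyclin A2, was higher in the Axin2-positive library of each index (0.504, 0.557 and 1.1 CPM against 0.46, 0.261 and 0.73 CPM). Birc5, survivin, had a log2 fold change of -0.34 (SE 0.49), the lowest of the mitotic members tested. Cdk1, Ccnb2 and Bub1, a kinase of the spindle checkpoint, lay between 0.0622 and 0.872 CPM.

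Across the phases, 11 members were higher in the Axin2-positive library of all 3 indexes (19.5% of tested genes), namely Ccne2, Cdk4, Cdk6, Myc, Mcm6, Pcna, Cdt1, Gmnn, Rrm2, Top2a and Ccna2. Ccnd2, Cdkn1a and E2f1 were lower in all 3 (20.1%). Without index 1, 18 members were higher in both indexes (35.3%) and 6 lower (36.5%). The 11 comprise 4 of 14 G1 members, 5 of 12 S phase members and 2 of 14 tested mitotic members. Both counts depend on index 1, whose Axin2-positive library goes against its label and lies close to its partner.

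**Figure D4:**
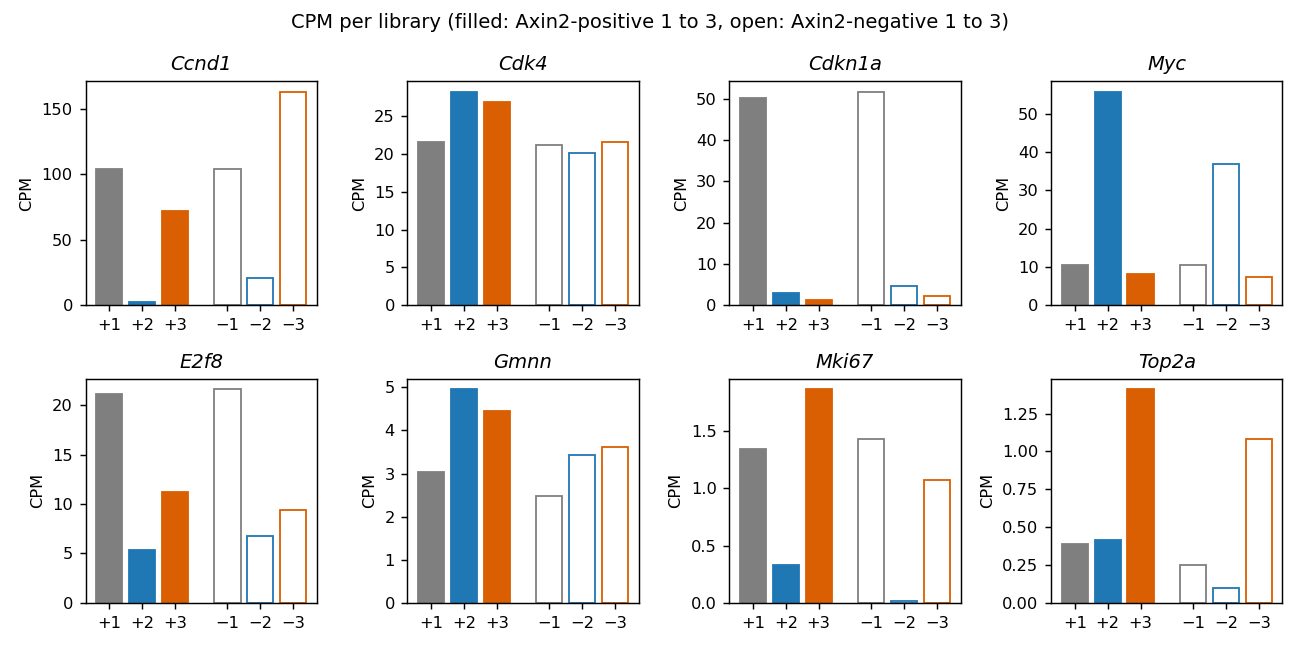
Bars give the CPM of 8 members in each library, from 0, filled for Axin2-positive (+) and open for Axin2-negative (−), numbered and coloured by index. Cdk4 stands at 28.2 and 26.9 CPM in Axin2-positive 2 and 3 and at 20.1 to 21.6 CPM in the Axin2-negative libraries, while Cdkn1a, Myc and E2f8 stand highest in both libraries of 1 index.

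Further genes of the same pathways were read from 5 lists without members of the 41. Of 23 tested genes of G1 and DREAM control, 32 of DNA replication, 32 of mitosis, 9 of cytokinesis and ploidy control and 12 p53 targets, 0 were called by edgeR over 6 libraries, with or without the index block. Their median log2 fold changes were 0.08, 0.18, 0.08, -0.00 and 0.12. Over indexes 2 and 3, 1 of the 32 DNA replication genes (Gins2, higher) and 1 of the 12 p53 targets (Btg2, lower) were called and none of the rest, against 3.43% of all genes higher and 4.01% lower in that fit.

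Gins2, a subunit of the helicase activator GINS, stood at 0.206, 0.481 and 0.837 CPM under the Axin2-positive label and 0.209, 0.0249 and 0.148 CPM under the Axin2-negative label. It was higher in the Axin2-positive libraries of indexes 2 and 3 (adjusted p = 0.0454 in edgeR), on 2 to 72 reads, and did not pass against a fold of 1.5 (adjusted p = 0.123). Cks2, a subunit bound by cyclin-dependent kinases, stood at 16.1, 17 and 16.6 CPM against 14.3, 10.9 and 12.4 CPM. All its Axin2-positive libraries lay above the Axin2-negative ones, as for 3.44% of tested genes. Its unadjusted p in edgeR with the index block was 0.0155 (adjusted p = 0.45), the lowest of the 32 tested genes of that mitosis list. Cdca8, borealin, which serves with Aurkb in the passenger complex, stood at 0.525, 0.963 and 1.17 CPM against 0.428, 0.411 and 0.593 CPM. Its groups overlapped.

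Prim1, a subunit of the primase that starts new DNA strands, stood at 2.17, 1.47 and 2.12 CPM against 2.46, 2.17 and 3.11 CPM. It was lower in the Axin2-positive library of each index, as for 20.1% of tested genes. Tfdp1, the partner of E2F factors, stood at 13.4, 21.1 and 18.3 CPM against 12.4, 19.6 and 14.6 CPM. Lin37, a subunit of the DREAM complex, stood at 5.67, 6.83 and 6.07 CPM against 5.23, 5.65 and 4.55 CPM. Both were higher in the Axin2-positive library of each index, as for 19.5% of tested genes. Kif20a, a motor of the central spindle in cytokinesis, stood at 1.14, 1.14 and 1.51 CPM against 0.93, 0.809 and 1.19 CPM. Prc1, which bundles microtubules of the central spindle, stood at 0.494, 0.177 and 0.5 CPM against 0.293, 0.0871 and 0.479 CPM. Kif20a and Prc1 were each higher in the Axin2-positive library of every index, and neither had an unadjusted p under 0.05 in edgeR. In index 3 Prc1 had 43 against 42 reads. Of the 9 tested genes of their list, 4 had a positive log2 fold change over 6 libraries. Genes named from the lists were chosen for the lowest unadjusted p, which favours 1 direction across indexes.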

How the data were processed

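RNA-seq of 6 libraries was analysed, 3 per group, made with a stranded mRNA kit, per the labels' protocols. The deposited counts are whole reads for each gene symbol. Per the submitters' processing notes, TopHat2 2.0.11 and Cuffdiff 2.2.2 were used with the build mm10; which program counted reads, on what annotation and with what strand setting is not given in the sources used here. A deposited Cuffdiff table holds 1 FPKM value for each transcript in each group, with its p-value and q-value; transcript values were summed per gene.

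The quasi-likelihood test of edgeR 4.0.16 (R 4.3.3) was run on group alone after filterByExpr and TMM scaling, with Benjamini-Hochberg adjustment over all tested genes at 0.05. CPM were computed on TMM-scaled totals, and log2 differences within an index use an offset of 0.05 CPM. Alternatives were the index as a block, DESeq2 1.42.0, limma-voom (limma 3.58.1), other scalings, no filter, each library or index left out, a fold of 1.5 on 2 pairs, an offset of 0.5 CPM and a fold of 2. DESeq2, limma-voom and the edgeR fits on group alone, with the block and on 2 pairs with the block were run on simulated data. The other alternatives were not. Same-numbered libraries deviated together from their group means (r = 0.679, 0.815 and 0.756, and at most 0.161 for other pairs), so the shared index pairs the libraries.

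The members and gene lists were chosen with earlier results of these data known. Values in every library are given for members with a mean of at least 5 CPM, the 5 largest mean differences per phase over indexes 2 and 3, and E2Fs, D cyclins, inhibitors, Myc and Mki67, with other members added where described. Of each further list, the 2 genes with the lowest unadjusted p in the blocked fit are named. Ratio intervals are 95% exact Clopper-Pearson intervals. Promoter sequences are from RefSeq (GRCm38.p6) and gene positions from GENCODE (GRCm38).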

Additional observations from a re-analysis of the deposited data

How the results depend on the processing

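No member was called under any of 17 alternatives, all edgeR scalings, DESeq2, limma-voom, no filter and every left-out library or index among them. For Cdkn1a DESeq2 gave no adjusted p. The number of genes called, 0 over 6 libraries, ran from 0 to 922 when libraries were left out: it was 6 without Axin2-positive 1, the library against its label, and 922 without index 1, or 208 against a fold of 1.5. The replicate block changed no call, and the blocked medians were 0.03 for G1, 0.19 for S phase and 0.33 for mitosis. The G1 median was 0.01 with upper quartile scaling and 0.01 with library totals.

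Over fits that left out 1 library (group only) or 1 index (with the block, so 2 choices changed), the median log2 fold change ran from -0.03 to 0.14 for G1, from -0.02 to 0.39 for S phase and from -0.08 to 0.67 for mitosis; the lowest S phase and mitotic medians came without Axin2-negative 2, and the lowest G1 and highest mitotic medians from blocked fits. Without index 1, an alternative added after the data were seen, the members not overlapping were 7 higher and 1 lower, and those in the same direction in every pair 18 higher and 6 lower. Past a fold of 2 in both indexes 2 and 3 there were 0 members higher and 1 lower, and with library totals 0 did not overlap on the higher side.

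Of 26 named members, 19 changed sign, at 2 decimals, in at least 1 alternative, 36 of 416 in all, each time with a library or index left out; the cause was not tested. Ccnb1 is not among these because its value, 0.00, has no sign: it was -0.02 with upper quartile scaling, -0.57 without Axin2-negative 2 and 1.45 without index 3 with the block. Their log2 fold changes then ran from -1.30 to 0.21 for Ccnd2, -0.08 to 0.22 for Ccnd3, -0.05 to 0.04 for Cdk2, -3.26 to 2.39 for Cdkn1a, -0.12 to 0.05 for Cdkn1b, -0.88 to 0.03 for Cdkn2c, -0.01 to 0.25 for Rb1, -0.97 to 1.48 for Myc, -0.77 to 0.15 for E2f1, -0.03 to 0.14 for Mcm7, -0.75 to 0.43 for E2f7, -0.61 to 0.63 for E2f8, -0.09 to 1.55 for Mki67, -0.54 to 0.72 for Ccne1, -0.18 to 1.16 for Mcm6, -0.06 to 0.60 for Mcm4, -0.06 to 2.29 for Plk1, -0.09 to 1.48 for Cdc20, -0.24 to 2.07 for Top2a. Depth limits the mitotic members: 1 read in Axin2-negative 2 sets the Mki67 ratio.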
